A study of Mus musculus with 9 samples.

Results

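The genes described here build the folding compartment of the endoplasmic reticulum (ER) and the first steps of the secretory pathway. They were chosen by symbol: all genes whose names start with Pdia, Tmed, Kdelr, Sec11, Sec13, Sec16, Sec22, Sec23, Sec24, Sec31, Sec61, Sec62, Sec63 or Sar1, together with the TRAP subunit genes Ssr1 to Ssr4 and named chaperones, COPI subunits and regulators. This gave 61 measured genes of 18193 with 1 symbol in the array's annotation. Copg and Fkbp10, which the choice also named, had no probe set of a single symbol under those names and were not analysed here. RNA came from the left ventricle of C57BL/6 males and was hybridized to Affymetrix mouse arrays. Of the 9 mice, 4 had transaortic constriction (TAC) and 5 sham surgery, each 6 weeks earlier. TAC narrows the aorta and loads the ventricle with pressure, and the submitters used it to bring about heart failure. The series title concerns the kinase HIPK2 in cardiomyocytes, but the labels name no transgene, deletion or drug for either group and no age.

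Proteins that will be secreted, or that sit in membranes, enter the ER through the Sec61 channel, lose their signal peptide, are glycosylated and fold with the help of chaperones and disulfide isomerases. Folded cargo leaves in vesicles with a COPII coat, and escaped ER residents and receptors return in vesicles with a COPI coat. In the heart, fibroblasts send collagen along this route, and cardiomyocytes send natriuretic peptides and channels. When unfolded protein accumulates, the unfolded protein response raises many of these genes together.

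Most of the pathway stood close to its sham level in TAC. Of the 61 genes 6 rose and 2 fell at an adjusted p below 0.05 in limma, which is 13.1% of them. Over all 18193 genes, 25.1% passed the same test, 12.8% as higher and 12.3% as lower, so the share of called members was below that of the arrays as a whole. Of all calls 51.1% were higher, and 40.5% were with each array centred on its own median. The genes that rose were the KDEL receptor gene Kdelr3, the transcription factor gene Creb3l2, the ER exit site gene Sec16b, the p24 gene Tmed3, the disulfide isomerase gene P4hb and the vesicle fusion gene Sec22b. Sec22a and Sec16a fell. The 3 largest differences were 1.94-fold for Kdelr3, 1.87-fold for Creb3l2 and 1.80-fold for Sec16b, and no other member reached 1.5-fold.

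The median TAC minus sham difference over the 61 genes was 0.01 on the log2 scale, against -0.004 over all genes, and the middle of the distribution was narrower, with quartiles of -0.08 and 0.12 against -0.16 and 0.15. The 95% confidence interval lay wholly within 1.25-fold in either direction for 38 members, or 62.3%, against 34.8% of all genes, a limit chosen after the values were seen. All 4 TAC values lay above the sham range in 9 members and below it in 3, together 19.7%, against 25.2% of all genes. Most members are bright: 54 were brighter than the median gene, whose level was 7.65. In a fit on those brighter genes alone, 13 of 54 members were called, 24.1%, against a background of 45.3%. The 7 dimmer ones were Sec16b, Creb3l1, Tmed2, Pdia2, Pdia4, Tmed6 and Tmed11, and a small difference there is harder to see.

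**Figure D1:**
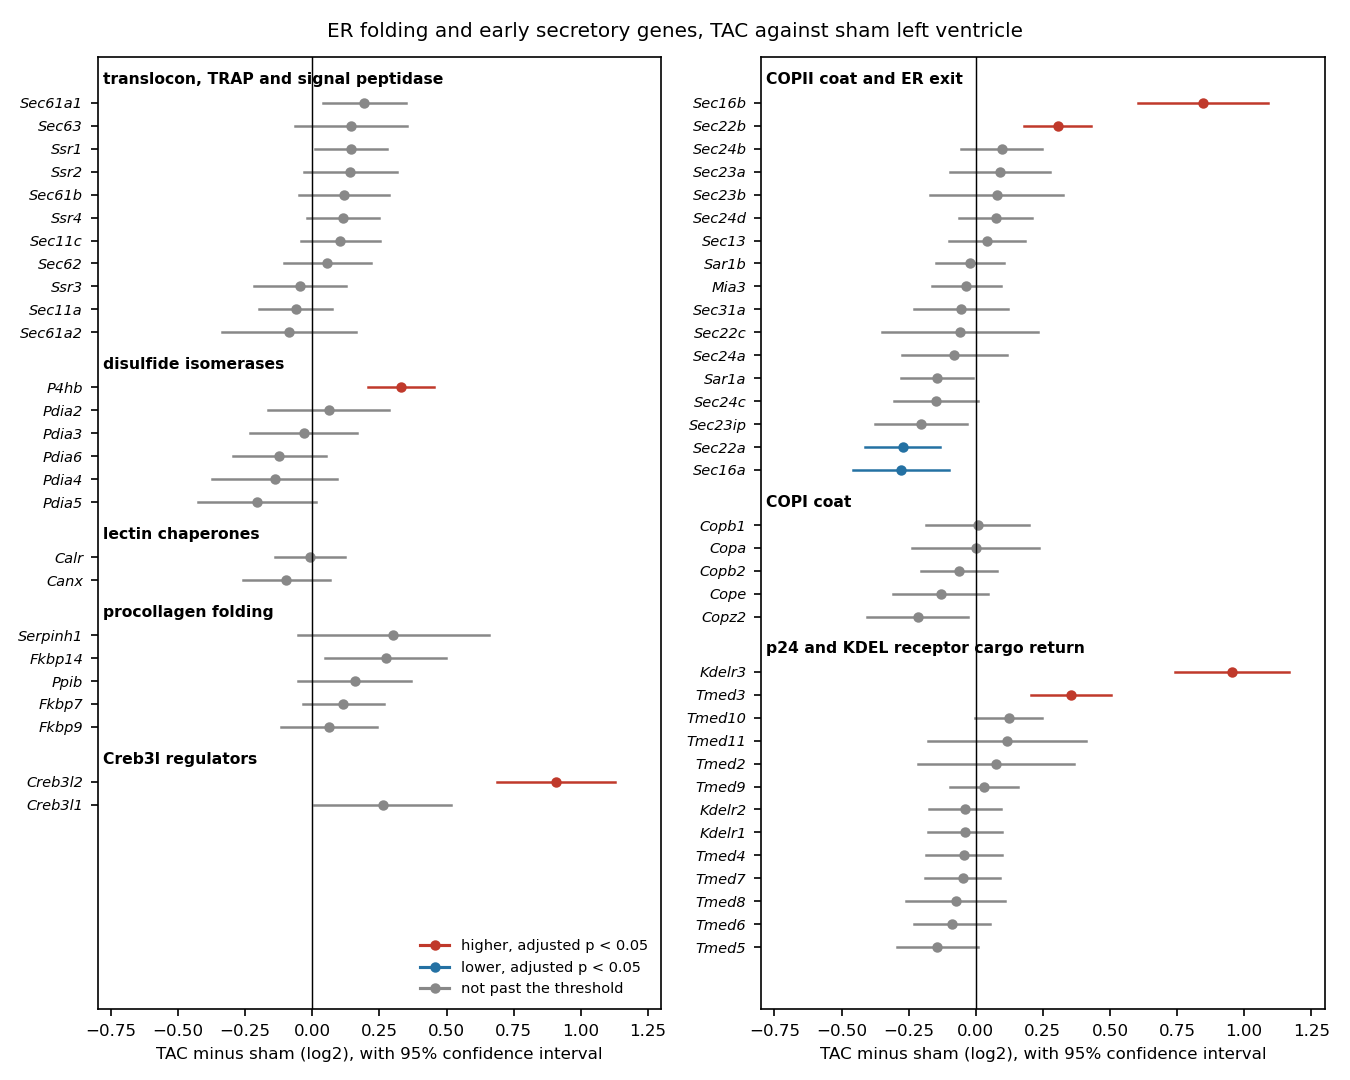
TAC minus sham difference (log2, x axis) of each of the 61 genes, grouped by role, with points for the limma estimate and bars for its unadjusted 95% confidence interval. Red points rose and blue points fell at an adjusted p below 0.05; Kdelr3, Creb3l2 and Sec16b lie at 0.85 to 0.95, and every grey point lies between -0.22 and 0.30.

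Some facts of the arrays bear on these genes. Every array held the same sorted values, with a median of 6.5661, so a general rise or fall of RNA cannot be seen. Sham replicate 2 had the lowest sham value in 31 of the 61 members and TAC replicate 4 the lowest TAC value in 32. Without sham replicate 2, the same 6 members were called higher, and 3 were called lower, the third being the COPI gene Copz2 (-0.26, adjusted p = 0.0292). Cardiomyocyte markers were bright in both groups, with array means of 14.09 to 14.13 in sham and 14.04 in TAC, and 1 of 8 passed, as lower. Markers of activated fibroblasts rose in 7 of 7 genes, with array means of 8.58 to 9.59 in sham and 11.32 to 11.74 in TAC, and macrophage markers in 5 of 7 (9.56 to 9.91 and 10.13 to 10.26). Resting fibroblast markers rose in 2 of 6 (11.06 to 11.17 and 11.16 to 11.49). In whole tissue, a change in the number of cells of a type and a change of RNA per cell cannot be told apart, and the part of these cell types in the results below was not tested.

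Retrieval of ER residents gave the largest difference. KDEL receptors catch soluble ER proteins that have reached the Golgi and carry them back. Kdelr3 measured 8.54, 8.23, 8.56, 8.68 and 8.72 in sham replicates 1 to 5 and 9.46, 9.51, 9.57 and 9.47 in TAC replicates 1 to 4. All TAC values were above all sham values, and the TAC arrays were close together (SD 0.05, n = 4, against 0.19, n = 5, in sham). The difference was 0.95 (SE 0.10, adjusted p = 6.62e-05 in limma). The other KDEL receptor genes did not pass, at -0.04 (adjusted p = 0.691) for Kdelr1 and -0.04 (adjusted p = 0.700) for Kdelr2, and their 95% intervals ran from -0.18 to 0.10 and from -0.17 to 0.10. The difference between Kdelr3 and Kdelr2 was tested directly, with the other pairs below.

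The p24 proteins, encoded by Tmed genes, are cargo receptors that cycle between ER and Golgi. Tmed3 measured 10.43, 10.54, 10.50, 10.53 and 10.62 in sham and 10.77, 10.84, 10.95 and 10.96 in TAC, again with no overlap. It rose by 0.36 (SE 0.07, adjusted p = 0.00342), or 1.28-fold, and its dimmer probe set rose by 0.49 (adjusted p over all probe sets = 0.0084). The other 9 measured p24 genes did not pass. Tmed10 differed by 0.12 (adjusted p = 0.145), with all TAC values above the sham range, and Tmed5 by -0.14 (0.161), with all TAC values below it. The dimmer Tmed5 probe sets were all positive, at 0.05 to 0.12. Their mean with the brightest was 0.04 (adjusted p = 0.765), so the sign of Tmed5 depends on the probe set. Smaller differences were those of Tmed6 (-0.09, 0.360), Tmed8 (-0.08, 0.572), Tmed7 (-0.05, 0.637), Tmed4 (-0.04, 0.677) and Tmed9 (0.03, 0.766). Tmed11 (0.12, 0.585) and Tmed2 (0.08, 0.731) were measured by dim probe sets. For Tmed2 and Tmed10 most probe sets are annotated to more than 1 gene and were left out, so the Tmed2 value rests on a probe set at 7.01. A dimmer probe set of Tmed4 fell by 0.24 (adjusted p over all probe sets = 0.0279) while the brightest one did not pass.

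The regulators Creb3l1 and Creb3l2 encode transcription factors that are held in the ER membrane, are cut free in the Golgi and drive secretory genes in cells that make matrix. Creb3l2 measured 9.30, 8.94, 9.11, 9.24 and 9.28 in sham and 10.05, 10.02, 10.31 and 9.95 in TAC. The groups did not overlap, and the difference was 0.91 (SE 0.10, adjusted p = 0.000113). Its second probe set rose by 0.80 (adjusted p over all probe sets = 0.0307). Creb3l1 differed by 0.26 (95% interval 0.01 to 0.52, adjusted p = 0.130) and did not pass. Its values ran from 6.92 to 7.49 in sham and from 7.33 to 7.64 in TAC, so the groups overlapped, and without sham replicate 1 it was called at 0.33 (adjusted p = 0.0453).

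Exit from the ER held calls in both directions. COPII vesicles form at exit sites that the Sec16 scaffold marks, where the GTPase Sar1 recruits the Sec23 and Sec24 inner coat and the Sec13 and Sec31 outer coat. Of the 17 measured genes 2 rose and 2 fell, with a median of -0.04. Over all genes 12.8% rose and 12.3% fell, so these counts are near the shares of the arrays as a whole. Sec16b measured 6.65, 6.35, 6.72, 6.39 and 6.82 in sham and 7.51, 7.53, 7.42 and 7.26 in TAC, a difference of 0.85 (SE 0.11, adjusted p = 0.000335) with no overlap. Its paralog Sec16a went the other way, from 10.86, 10.53, 10.73, 10.73 and 10.78 in sham to 10.58, 10.41, 10.35 and 10.44 in TAC. The difference of Sec16a was -0.28 (SE 0.08, adjusted p = 0.0273), and the groups overlapped, since sham replicate 2 lay below TAC replicate 1. This call depended on single arrays: without any 1 of 7 of them it was lost, the adjusted p reaching 0.0861 without TAC replicate 3. The second Sec16a probe set, at -0.29, was not called (adjusted p over all probe sets = 0.115).

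The Sec22 genes also split. Sec22b encodes a SNARE protein that fuses vesicles between ER and Golgi. It measured 10.65, 10.62, 10.69, 10.74 and 10.73 in sham and 10.98, 11.02, 11.01 and 10.95 in TAC, and rose by 0.30 (SE 0.06, adjusted p = 0.00301). The groups did not overlap, but its second probe set, at 0.10, was not called (adjusted p over all probe sets = 0.371). Sec22a, a relative of Sec22b, measured 9.24, 9.18, 9.19, 9.27 and 9.37 in sham and 8.95, 8.98, 8.92 and 9.05 in TAC. It fell by 0.27 on the log2 scale (SE 0.06, adjusted p = 0.0101), again without overlap. The second Sec22a probe set, at -0.16, was not called (adjusted p over all probe sets = 0.202), and there the groups overlapped. Sec22c (-0.06, adjusted p = 0.801) did not pass.

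**Figure D2:**
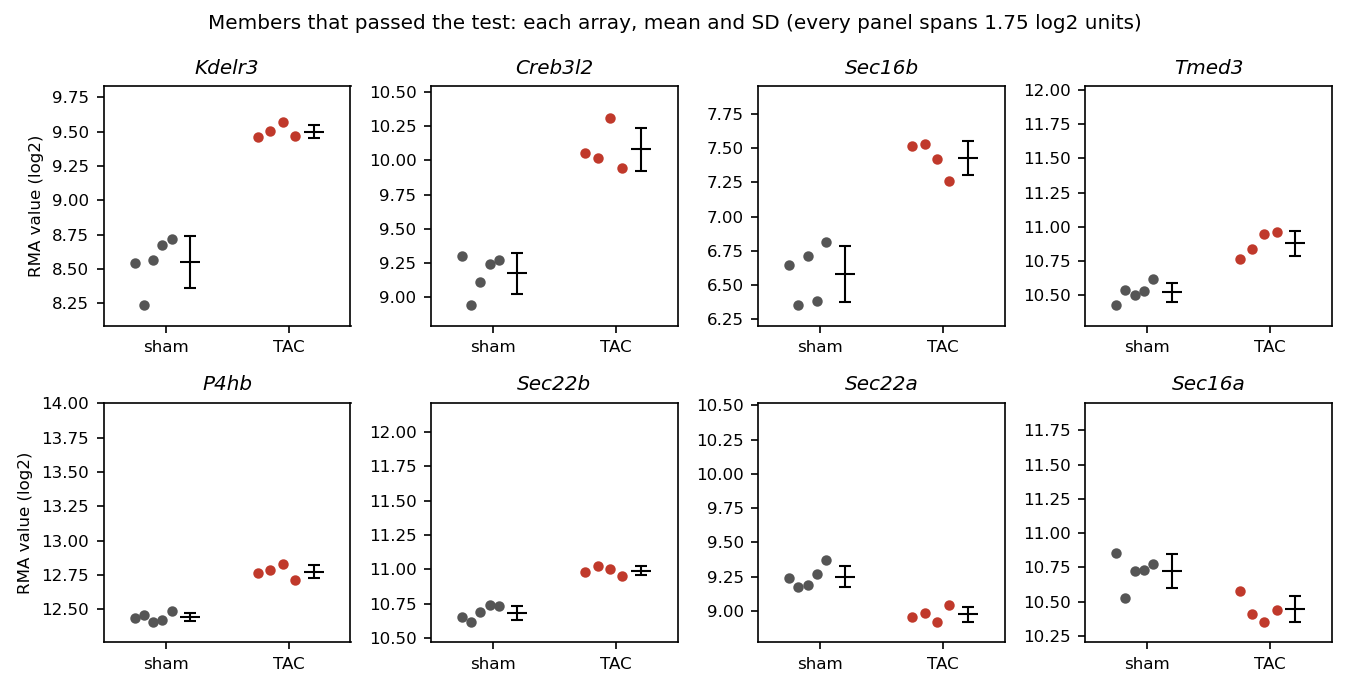
RMA values (log2, y axis) of the 8 genes that passed the test, with 1 point per array for 5 sham and 4 TAC arrays and the mean and SD beside them; all panels span the same number of log2 units. The groups overlap only in Sec16a.

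At the brightest probe sets the coat proper stood near its sham level. None of the coat, GTPase and cargo loading genes passed there in the main fit, and their differences ran from -0.20 to 0.10. The inner coat genes were Sec23a (0.09, adjusted p = 0.496), Sec23b (0.08, 0.675), Sec24a (-0.08, 0.566), Sec24b (0.10, 0.344), Sec24c (-0.15, 0.157) and Sec24d (0.07, 0.427). With array weights in limma, Sec24c was called lower (-0.177, adjusted p = 0.0465). A dimmer Sec24b probe set was at 0.42 (adjusted p over all probe sets = 0.0585). The mean over the Sec24b probe sets was 0.26 (adjusted p = 0.052), so neither passed. The outer coat genes were Sec13 (0.04, 0.700) and Sec31a (-0.06, 0.668). Sec23ip, whose product binds Sec23, was at -0.20 (0.0796), and Mia3, which encodes the TANGO1 receptor that loads bulky collagen into COPII carriers, at -0.04 (95% interval -0.16 to 0.09, adjusted p = 0.714). The GTPase gene Sar1b was at -0.02 (0.836). Sar1a depended on the probe set: its brightest one differed by -0.14 (0.109), whereas a dimmer one rose by 0.25 (adjusted p over all probe sets = 0.0240). Sec23ip and Sar1a alone among these genes were below 0.05 before adjustment at the brightest probe set. At their brightest probe sets both passed, as lower, in limma's trended robust fit, which lets the spread depend on the level and damps outlying genes (adjusted p = 0.0497 and 0.0237). The second Sec23ip probe set went the other way, at 0.16 (adjusted p over all probe sets = 0.155). The means over probe sets were -0.02 for Sec23ip (adjusted p = 0.826) and 0.05 for Sar1a (0.579), so neither gene has a settled direction.

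COPI coats the vesicles that return from Golgi to ER. None of the 5 subunit genes in the choice passed, with a median of -0.06. Copa was at 0.00 (adjusted p = 0.999), Copb1 at 0.01 (0.965), Copb2 at -0.06 (0.527), Cope at -0.13 (0.275) and Copz2 at -0.22 (0.0906). Only Copz2 had an unadjusted p below 0.05, and the trended robust fit called 0. Other limma settings called Copz2 lower. These were array weights (-0.27, adjusted p = 0.0118), each array centred on its median (-0.27, 0.019) and brighter genes alone (-0.22, 0.0455). Leaving out sham replicate 2 did so too. Array weights also called Cope lower (-0.185, adjusted p = 0.0488). Copz2 ran from 9.98 to 10.31 in sham and from 9.88 to 10.09 in TAC. Copg1, the gamma subunit gene, is listed under its newer symbol and so fell outside the choice of genes. It was higher by 0.24 (adjusted p = 0.0415), with overlapping groups, and was looked up after the values of the others were seen. The subunit genes Copg2 (0.22, adjusted p = 0.0857), Arcn1 (0.13, 0.210) and Copz1 (-0.12, 0.311) were also outside the choice and did not pass.

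Entry into the ER was measured by 11 genes, of the Sec61 channel, its partners Sec62 and Sec63, the TRAP complex that assists it (Ssr1 to Ssr4) and the catalytic subunits of signal peptidase (Sec11a, Sec11c). In limma 0 of 11 passed. Before adjustment 2 were below 0.05, Sec61a1 and Ssr1, and the trended robust fit called these 2 higher. The median difference was 0.11, and 8 of 11 differences were positive. Sec61a1, the channel subunit, came closest at 0.19 (95% interval 0.04 to 0.35, adjusted p = 0.0664). Its sham values were 10.93, 10.69, 10.94, 10.92 and 10.93 and its TAC values 11.07, 11.08, 11.12 and 11.03, with no overlap. It passed with cyclic loess scaling (0.22, adjusted p = 0.0289), with array weights (0.17, 0.0314) and in the trended robust fit (0.19, 0.0333), and 1 of its 5 dimmer probe sets passed over all probe sets (0.22, 0.0358). The 3 dimmest Sec61a1 probe sets were at -0.0017, -0.05 and -0.15, and the mean of all of them differed by 0.07 (adjusted p = 0.452), so the value depends on the probe set. Ssr1 (0.14, 0.116) did not pass at its brightest probe set, where all TAC values lay above the sham range. The dimmest of its 4 probe sets rose by 0.59 (adjusted p over all probe sets = 0.00361), and their mean rose by 0.26 (adjusted p = 0.0150).

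The remaining entry genes were Ssr2 (0.14, adjusted p = 0.228), Ssr3 (-0.04, 0.732), Ssr4 (0.11, 0.202), Sec61b (0.12, 0.307), Sec61a2 (-0.09, 0.628), Sec62 (0.06, 0.639), Sec63 (0.14, 0.308), Sec11a (-0.06, 0.519) and Sec11c (0.10, 0.296). Each of these overlapped between the groups, and 1 dimmer probe set of Sec63 rose by 0.28 (adjusted p over all probe sets = 0.0227).

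Among the folding enzymes, P4hb rose and the rest did not pass. P4hb encodes protein disulfide isomerase, which is also the beta subunit of the prolyl 4-hydroxylase that modifies collagen. It measured 12.44, 12.45, 12.41, 12.42 and 12.49 in sham and 12.76, 12.78, 12.83 and 12.71 in TAC. The arrays of each group were close together, with an SD of 0.03 over 5 sham and 0.05 over 4 TAC arrays. The groups did not overlap, and the difference was 0.33 (SE 0.06, adjusted p = 0.00165). The other isomerase genes were Pdia3 (-0.03, adjusted p = 0.842), Pdia4 (-0.14, 0.385), Pdia5 (-0.20, 0.168), Pdia6 (-0.12, 0.302) and Pdia2 (0.06, 0.724). Pdia3 encodes ERp57, which works on glycoproteins held by calnexin and calreticulin. At their brightest probe sets the lectin chaperone genes themselves were near their sham levels. Calr was at -0.01 (95% interval -0.14 to 0.12, adjusted p = 0.937) and Canx at -0.10 (-0.26 to 0.07, 0.388). At the brightest probe sets of Pdia2 to Pdia6, Calr and Canx, 0 were below 0.05 in limma before adjustment, and the trended robust fit called 0. A dimmer probe set of Calr was at 0.20 (unadjusted p = 0.0259 in limma) and a dimmer one of Canx at -0.31 (0.0133). Neither was called (adjusted p over all probe sets = 0.0955 and 0.0596).

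At their brightest probe sets the procollagen folding genes were all positive, but none passed. Serpinh1 encodes HSP47, the chaperone that binds the collagen triple helix. Its sham values were spread from 10.97 in replicate 2 to 11.84 in replicate 5, and its TAC values from 11.52 to 11.94. The difference was 0.30 (95% interval -0.05 to 0.66, adjusted p = 0.208), and without sham replicate 5 it was called at 0.42 (adjusted p = 0.0417). The prolyl isomerase gene Fkbp14 differed by 0.27 (adjusted p = 0.0772), Ppib, which encodes cyclophilin B, by 0.16 (0.269), Fkbp7 by 0.12 (0.257) and Fkbp9 by 0.06 (0.641). The means over probe sets were 0.13 for Fkbp14 (adjusted p = 0.456) and -0.01 for Fkbp7 (0.929). For Serpinh1 (0.32, 0.139), Ppib (0.18, 0.185) and Fkbp9 (0.10, 0.281) they stayed positive. At these probe sets Fkbp14 alone of the 5 was below 0.05 before adjustment, and the trended robust fit called 0. Fkbp14 was called higher in limma with array weights (0.265, adjusted p = 0.0381) and among brighter genes alone (0.27, 0.0409). The interval of Serpinh1 holds both no change and a rise larger than that of P4hb.

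Several members are paralogs, subunits of one coat or partners in one step, and unequal change within pairs of them was tested directly. Not all pairs can stand in for each other: Copb1 and Copb2, for example, are separate subunits of the COPI coat. For each of 18 pairs of genes, the difference of the log2 values within an array was compared between the groups over all 126 ways of dividing the arrays, an exact permutation test (two-sided) with Benjamini-Hochberg adjustment over the pairs. The smallest p this allows is 0.00794. The pairs were named with earlier results of these arrays known. In 4 pairs the change was unequal, each without overlap of the arrays (exact p = 0.00794, adjusted p = 0.0357). Kdelr3 changed by 0.99 more than Kdelr2, Sec16b by 1.13 more than Sec16a and Tmed3 by 0.40 more than Tmed7. Creb3l1 changed by -0.64 relative to Creb3l2. Any 1 array left out ends these 4 calls, since 8 arrays allow no smaller p than 0.0179 or 0.0286; the 4 differences then ranged over 0.90 to 1.04, 1.07 to 1.18, 0.36 to 0.47 and -0.69 to -0.61. The remaining 14 pairs did not pass. The closest were Sec24d against Sec24c, at 0.22 (exact p = 0.0159, adjusted p = 0.0571) with no overlap, and Sec11c against Sec11a, at 0.17 (exact p = 0.0317, adjusted p = 0.0952). Kdelr2 against Kdelr1 differed by 0.00 (exact p = 0.968, adjusted p = 0.968).

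**Figure D3:**
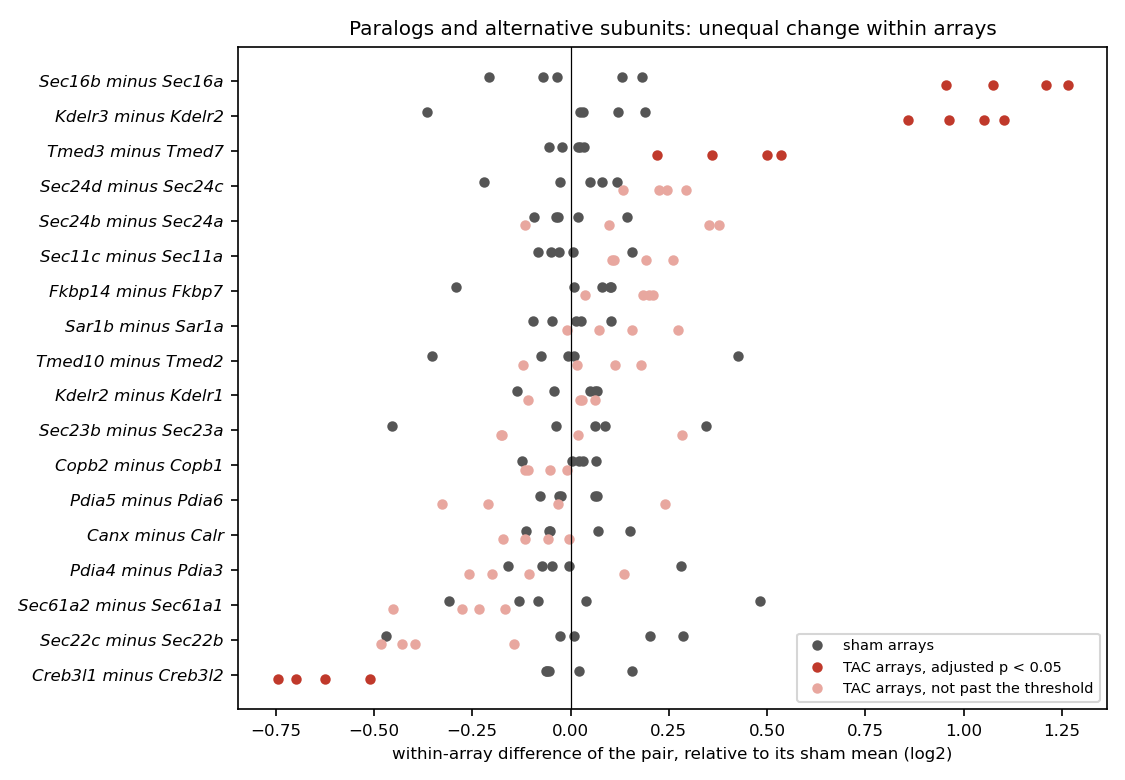
Within-array difference of 18 gene pairs relative to the sham mean of the pair (log2, x axis), with 1 point for each of 5 sham (grey) and 4 TAC (red) arrays. In the 4 pairs with dark red points, at -0.64 and at 0.40 to 1.13, the TAC arrays lie apart from the sham arrays.

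Promoters were read for motifs known from the unfolded protein response, since such genes often share them. RefSeq promoters (GRCm38.p6, 250 bases before to 50 after each start) were found by gene ID for 53 of the 61 members, among 27025 genes. Both strands were searched for the ER stress element ERSE (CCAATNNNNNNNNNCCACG), for ERSE-II (ATTGGNCCACG), for the element UPRE (TGACGTGG) and for the cyclic AMP element CRE (TGACGTCA). UPRE and CRE share their first 6 letters, and the end of ERSE read on the other strand is part of UPRE. The UPRE letters were in promoters of 6 members, 11.3%, against 0.714% of all genes with a promoter, and ERSE in 3 members, 5.66%, against 0.137%. ERSE-II was in 0 members (0.0444% of all genes) and CRE in 1, Cope (1.89% against 2.03%).

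The UPRE windows are shown because they hold both genes with the letters that rose and 4 that did not pass. Capitals mark the motif on either strand, and each window reads 5′ to 3′ along the gene's strand.
Kdelr3: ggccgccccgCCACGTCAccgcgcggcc
Sec16b: tctgtgtggcTGACGTGGcacggcagtt
Sec24d: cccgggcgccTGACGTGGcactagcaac
Sec23a: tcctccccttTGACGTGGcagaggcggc
Copb1: ccgcccccttCCACGTCAgccaaggact
Copb2: cccggaagttCCACGTCAgtgggttggc
They lie at chr15:79516368-79516395 (plus strand), chr1:157506742-157506769 (plus), chr3:123267460-123267487 (plus), chr12:59011994-59012021 (minus), chr7:114254691-114254718 (minus) and chr9:98563714-98563741 (plus). With the start counted as 0, the motif spans -30 to -23 in Kdelr3 and -44 to -37 in Sec16b, in 1 of 2 promoters listed for Sec16b.

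The ERSE windows are shown as the classical element of ER chaperone genes.
Calr: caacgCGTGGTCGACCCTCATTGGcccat
Canx: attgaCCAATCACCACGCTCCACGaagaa
Pdia6: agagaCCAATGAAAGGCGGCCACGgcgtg
They lie at chr8:84847070-84847098 (minus), chr11:50325795-50325823 (minus) and chr12:17266486-17266514 (plus). None of these 3 genes passed, with differences of -0.01 for Calr, -0.10 for Canx and -0.12 for Pdia6. Of the 8 called members, which all had a promoter in the table, 2 held the UPRE letters and 0 held ERSE. A match of letters describes these windows and shows no binding.

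The neighbouring steps of the pathway were set beside the 61 genes by lists of other genes. Of 25 genes of the unfolded protein response 5 rose and 3 fell, 32.0% against 25.1% of all genes, with a median of 0.04. Herpud1, which acts in ER-associated degradation, fell by 0.92 on the log2 scale (adjusted p = 4.48e-05), while the oxidase gene Ero1a rose by 0.72 (0.00116), the stress transcription factor gene Atf4 by 0.61 (0.00464) and the co-chaperone gene Dnajc10 by 0.36 (0.00493). Some chaperone genes of the ER were looked at after their values were seen. Hyou1, which encodes a chaperone of the HSP70 family, fell by 0.37 (adjusted p = 0.047), with overlapping groups, and Sil1, which encodes an exchange factor of the Hspa5 product, fell by 0.28 (0.0302). Hspa5 at -0.22 (0.0566) and Hsp90b1 at -0.20 (0.257) did not pass, nor did the transcription factor gene Xbp1 at -0.20 (0.199). The genes picked in this way were all negative, but others of the 25 went the other way. Ppp1r15a rose by 0.58 (adjusted p = 0.0132) and Mbtps2 by 0.38 (0.00932). The co-chaperone genes Dnajb11 (0.12, 0.216) and Dnajc3 (0.06, 0.828) were positive and did not pass. Of 18 genes of ER-associated degradation 3 rose and 1 fell, 22.2%, with a median of 0.05. Syvn1, the ubiquitin ligase of that route, fell by 0.41 (adjusted p = 0.00247), and Ubxn4 (0.35), Ube2g2 (0.26) and Nploc4 (0.27) rose.

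Of 26 genes of N-glycosylation 4 rose and 2 fell, 23.1%, with a median of 0.02. Magt1 fell by 0.53 (adjusted p = 0.00039), and the oligosaccharyltransferase genes Stt3a (0.32) and Ostc (0.37) and the glucosyltransferase gene Alg5 (0.32) rose. Of 10 genes of the signal recognition particle, its receptor and the other signal peptidase subunits, 2 rose, 20%, with a median of -0.03. These were the signal peptidase genes Spcs3, by 1.08 (SE 0.08, adjusted p = 9.15e-06), and Spcs1, by 0.23 (0.0379). The difference of Spcs3 exceeded that of any of the 61 genes, while the catalytic subunits Sec11a and Sec11c did not pass. Spcs2, named after its value was seen, was at -0.22 (adjusted p = 0.0517). Of 37 other genes of transport between ER and Golgi 4 rose and 3 fell, 18.9%, with a median of 0.06. There Ctage5, which encodes a partner of TANGO1, fell by 0.50 (adjusted p = 0.000553), and Arf4 (0.33), Trappc4 (0.46) and Bet1l (0.24) rose.

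Genes listed for work on collagen in the ER, and collagen itself, moved more. Of 16 genes listed for collagen hydroxylation and chain modification 6 rose and 1 fell, 43.8%, with a median of 0.27. The list also holds Sparc, Tram1 and Tram2, whose products are not such enzymes. Sparc (0.58, adjusted p = 0.00125) and Tram2 are among the 6 that rose. P3h2 rose by 1.74 (adjusted p = 8.06e-06), P3h3 by 0.88 (0.000475) and Tram2 by 0.74 (0.000311), while P3h4 fell by 0.93 (1.13e-05). Of 7 fibrillar collagen chain genes, the bulky cargo of the pathway in fibroblasts, 5 rose, 71.4%, and the other 2 did not pass, with a median of 0.92. Col5a2 rose by 2.03, Col1a2 by 1.28, Col5a1 by 0.97 and Col1a1 by 0.92 (adjusted p = 1.03e-05 to 2.05e-05). Beside these, the median of the 61 genes was 0.01. The collagen list shares 2 genes with the activated fibroblast markers, and whether the collagen differences and those of Kdelr3, Creb3l2 or P4hb come from the same cells was not tested.

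**Figure D4:**
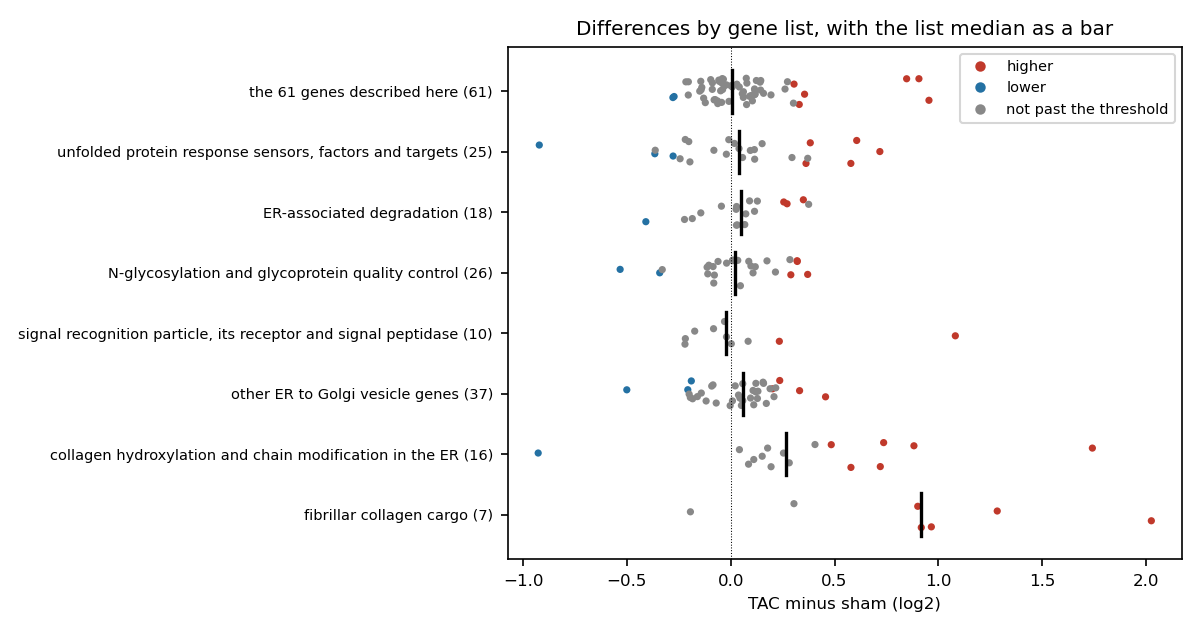
TAC minus sham differences (log2, x axis) of the 61 genes and of the genes of 7 neighbouring lists, with 1 point per gene, red for higher and blue for lower at an adjusted p below 0.05, and a bar at the list's median. The medians are 0.01 for the 61 genes, 0.27 for the collagen modification list, which also holds Sparc, Tram1 and Tram2, and 0.92 for fibrillar collagens.

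Of the 123 probe sets that belong to the 61 genes, 12 rose and 3 fell over all probe sets, and 20.8% of all probe sets passed either way. In 39 members with several probe sets, 0 had probe sets passing in opposite directions and 21 had the same sign throughout. For 5 members, Sar1a, Sec61a1, Sec63, Ssr1 and Tmed4, a dimmer probe set passed where the brightest did not.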

How the data were processed

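Left ventricular RNA of 9 mice was hybridized to Affymetrix arrays, 1 sample per array. The deposited values are on a log2 scale; the submitters' processing notes name RMA (version not given), which subtracts background, forces one distribution on all arrays and summarises each probe set, so only relative changes can be seen. No genome build is named for the array values, and the promoter windows are on GRCm38.p6. Of 45101 probe sets, 64 controls, 932 with several symbols and 9160 not listed were left out. Each of 18193 genes was represented by its brightest probe set. All 61 member symbols matched the reference table by gene ID.

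TAC minus sham was fitted per gene in limma 3.58.1 (R 4.3.3; lmFit and eBayes), with two-sided p-values adjusted by Benjamini-Hochberg over all genes. Figures and pair tests used Python 3.11.15. The fits were tested on simulated data. Replicate numbers follow the order of the samples and pair nothing. The series text counts 5 sham and 4 TAC mice, and each array was taken as 1 mouse, though the labels carry no animal names. The number of arrays limits precision. All members were named; array values were given for up to 4 called members of each role and for called members that were lower, and up to 4 called genes of each list were named. Members, pairs, motifs and lists were chosen with earlier results of these data known. Endothelial markers (1 higher and 1 lower of 6), smooth muscle and pericyte markers (2 and 2 of 7) and plasma and B cell markers (1 and 0 of 4) were also read.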

Additional observations from a re-analysis of the deposited data

Results flagged for a closer look

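In 122 groups (61 genes, sham and TAC), 8 held an array whose gap to the nearest array was a large share of the group's range, where chance gives about 1 in 20. Sham replicate 2 was high in Pdia4 (6.55, next 6.30) and low in Sec61a1 (10.69, next 10.92). Sham replicate 1 was high in Sar1a (12.70, next 12.62) and sham replicate 5 low in Sec62 (12.61, next 12.82). TAC replicate 4 was low in Fkbp7 (11.00, next 11.18) and high in Tmed4 (11.75, next 11.56). TAC replicate 3 was high in Sec23b (9.90, next 9.55) and TAC replicate 1 high in Tmed2 (7.27, next 7.003). None of these 8 genes was called.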

How the results depend on the processing

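The 6 genes called higher stayed called in all 18 alternatives, except that Sec16b was not tested among genes brighter than the median gene, and with an adjusted p below 0.01 all 6 remained. The count called lower was 5 among brighter genes (background 45.3%) and 5 with array weights (32.7%), 4 in the trended robust fit and 4 with each array centred on its median. At an adjusted p below 0.01 in limma it was 0, with 5 lower at an unadjusted p below 0.05, and 4 lower by the robust fit at 0.05. Leaving out 1 array gave 6 to 7 higher, 1 to 3 lower, and a median of -0.017 to 0.045. Centring moved the median of the members to -0.043 and of all genes to -0.055, and the share of all calls that were higher from 51.1% to 40.5%. The count of unequal pairs was 0 among brighter genes, where 14 pairs were left without Sec16b and Creb3l1 (4 at an unadjusted p below 0.05). There Kdelr3 against Kdelr2 (0.99) and Tmed3 against Tmed7 (0.40) kept their differences and their p of 0.00794, the smallest possible, which 2 of 14 pairs can bring only to an adjusted p of 0.0556. It was 0 without any 1 array (4 to 8 at an unadjusted p below 0.05, smallest adjusted p = 0.0643). Of the single members' values, 9 lost and 23 gained a call and 0 called values changed sign. No paired analysis was made, because the labels name no pairing of sham and TAC mice. Tmed6, Tmed11, Pdia2 and Pdia4 lie below the arrays' median signal of 6.5661, which limits what can be seen there.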
